A study of Homo sapiens with 9 samples.

Results

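Epithelial cells of the gut carry a set of genes that take part in defence against bacteria. Here 10 such genes were followed in HT-29 cells, an established human colorectal adenocarcinoma line. The genes were LCN2, PI3, SLPI, PIGR, NOS2, DUOX2, DUOXA2, NOX1, PGLYRP2 and DEFB1. They were taken by gene symbol from a count table of 62710 distinct gene identifiers, and each of the 10 matched 1 identifier. Wild-type HT-29 cells were left without stimulation, stimulated with ADP-heptose at 500 ng/mL or stimulated with flagellin at 500 ng/mL, all for 2.5 h, with 3 libraries of polyadenylated RNA in each group. The non-stimulated cells received neither ligand, the ADP-heptose was ADP-L-heptose and the flagellin was an ultrapure preparation from Salmonella. All groups are the same tumour line grown alone, so the libraries hold no tissue, mucus or immune cells, and no ALPK1-deficient cells were part of this experiment.

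ADP-heptose is a sugar metabolite of Gram-negative bacteria that is sensed inside the cell by the kinase ALPK1, while flagellin, the protein of bacterial flagella, is sensed at the cell surface by TLR5. Both receptors lead to the activation of the transcription factor NF-κB. Antimicrobial defence of the intestinal epithelium works through several routes: secreted proteins that bind bacterial iron carriers, peptides that damage membranes, inhibitors that restrain neutrophil proteases, enzymes that cut the bacterial cell wall, transport of antibodies to the lumen, and enzymes that make superoxide, hydrogen peroxide or nitric oxide. Inflamed colon is known for high levels of several of these transcripts, LCN2, PI3, DUOX2 and NOS2 among them.

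The libraries held 35040844 to 37537705 counts in non-stimulated cells, 30770448 to 38304035 after flagellin and 50054773 to 58272772 after ADP-heptose. ADP-heptose replicate 3 stood apart from replicates 1 and 2, with a standard deviation of the log2 differences over 12168 genes of 0.378 and 0.383, against 0.135 between replicates 1 and 2 and 0.167 to 0.196 for pairs in the other groups. In that library genes with short exon length were high: relative to the mean of replicates 1 and 2 the median was 1.29-fold over 349 genes of at most 1000 exon bases and 0.838-fold over 2523 genes of more than 8000 bases. PI3, SLPI and DEFB1 have 577, 596 and 478 exon bases, LCN2 1598 and NOX1 2529, so values of the members are given with and without this library where they depend on it, and the part of exon length was not tested beyond the offsets named in the closing section. Of 10 markers of intestinal epithelium 9 were abundant enough to test, whereas 7 of 10 leukocyte markers and 4 of 8 fibroblast and endothelial markers had at most 3 counts in every library. The leukocyte markers CD3E, MPO, ELANE, CSF3R and FCGR3B and the stromal markers COL1A2, DCN and CDH5 were at 0 throughout. The leukocyte list summed to 0.111 to 0.410 CPM (counts scaled for library size) in non-stimulated cells, 0.180 to 0.602 after flagellin and 0.640 to 1.41 after ADP-heptose, and the fibroblast and endothelial list to 12.6 to 14.7, 12.6 to 16.1 and 17.0 to 19.3 CPM. Of the latter only COL1A1 was tested, with 449 to 547 counts in non-stimulated cells and 816 to 1019 after ADP-heptose, and it rose by 0.41 on the log2 scale (adjusted p = 0.0311). The epithelial list summed to 8129 to 8500 CPM in non-stimulated cells, 8327 to 8660 after flagellin and 8919 to 12590 after ADP-heptose. Of its tested genes only KRT20 was called after ADP-heptose, with a rise of 0.40 on the log2 scale (edgeR, adjusted p = 9.41e-04). The part of these markers in the results was not tested. Both ligands acted on the cells, since the chemokine gene CCL20 rose by 8.01 (ADP-heptose) and 4.74 (flagellin) on the log2 scale, with adjusted p of 1.91e-13 and 4.07e-11. In bulk RNA, fewer cells that express a gene and less RNA per cell cannot be told apart.

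Levels are given as FPKM, that is counts scaled for library size and the length of all annotated exons, or as raw counts where a gene had few reads. FPKM compare genes only roughly, since the expressed transcript can be shorter and ADP-heptose replicate 3 varied with exon length. Differences are log2 fold changes from edgeR's quasi-likelihood test over 17412 genes in 1 fit of the 9 libraries, and adjusted p are Benjamini-Hochberg values over all of these genes. A gene was called when its adjusted p was under 0.05. An exact two-sided permutation of 3 libraries against 3 has 0.1 as its smallest p, which is why p-values are taken from the fit across genes. Of the 10 members 7 passed the filter on low counts, and NOS2, DUOX2 and DUOXA2 did not. PGLYRP2 passed only through its ADP-heptose libraries, and PIGR would not have passed without its flagellin libraries.

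After ADP-heptose PI3, SLPI, LCN2 and NOX1 were called higher than in non-stimulated cells, 4 members, where 7.48% of all tested genes were called higher. PGLYRP2 was called as well, which makes 5, but it entered the test only through the libraries where it was high and adds no support to the count. None of the 7 tested members was called lower by edgeR, had a lower value at an unadjusted p under 0.05 or was called lower by DESeq2, where 4.42% of tested genes were called lower. Flagellin gave 1 called member, PI3, against 0.368% of tested genes called higher, and 0 of the 7 tested members lower by edgeR, by DESeq2 or at an unadjusted p under 0.05, against 0.0115%. DUOXA2, tested only when no filter was applied, had an unadjusted p of 0.0300 there with a lower value after flagellin (adjusted p = 1). Between the ligands, PI3 and NOX1 were called higher after ADP-heptose than after flagellin (2 members, against 5.4% of tested genes). None was called lower there by edgeR or DESeq2, against 2.76% of tested genes, and 1 member, PIGR, had an unadjusted p under 0.05. That value adds no support, since PIGR entered the test only with its flagellin libraries, where it was high. The median log2 fold change over the 7 tested members, PGLYRP2 included and given as a description, was 0.59 after ADP-heptose, 0.39 after flagellin and 0.60 between the ligands, beside 0.01, 0.00 and 0.01 over all tested genes.

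PI3 encodes elafin, a small secreted inhibitor of neutrophil elastase and proteinase 3 that also acts on bacteria. It lies on chromosome 20 (GRCh38, chr20:45174876-45176544, plus strand). Its level was 20.4, 23.5 and 22.7 FPKM in the non-stimulated libraries, 51.3, 55.5 and 52.1 after flagellin and 299, 287 and 484 after ADP-heptose. The 3 groups did not overlap, and every ADP-heptose library was above every flagellin library, which in turn was above every non-stimulated one. The log2 fold change was 4.01 (SE 0.19, 95% confidence interval 3.60 to 4.41, adjusted p = 1.89e-08) after ADP-heptose, a 16.1-fold rise, and 1.26 (SE 0.17, 0.88 to 1.64, adjusted p = 0.0058) after flagellin, a 2.39-fold rise. PI3 was 6.73-fold higher after ADP-heptose than after flagellin at the same dose and time, with a log2 difference of 2.75 (SE 0.17, 2.37 to 3.13, adjusted p = 5.38e-07). Among 19855 protein-coding genes PI3 ranked 1944 by mean FPKM in non-stimulated cells, 714 after flagellin and 85 after ADP-heptose. Leaving out ADP-heptose replicate 3, where PI3 was at 1.65 times the mean of the other two, gave 3.73 against non-stimulated cells and 2.48 against flagellin. The flagellin call was lost when non-stimulated replicate 1 was left out, with a log2 fold change of 1.20 and an adjusted p of 0.0546.

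**Figure D1:**
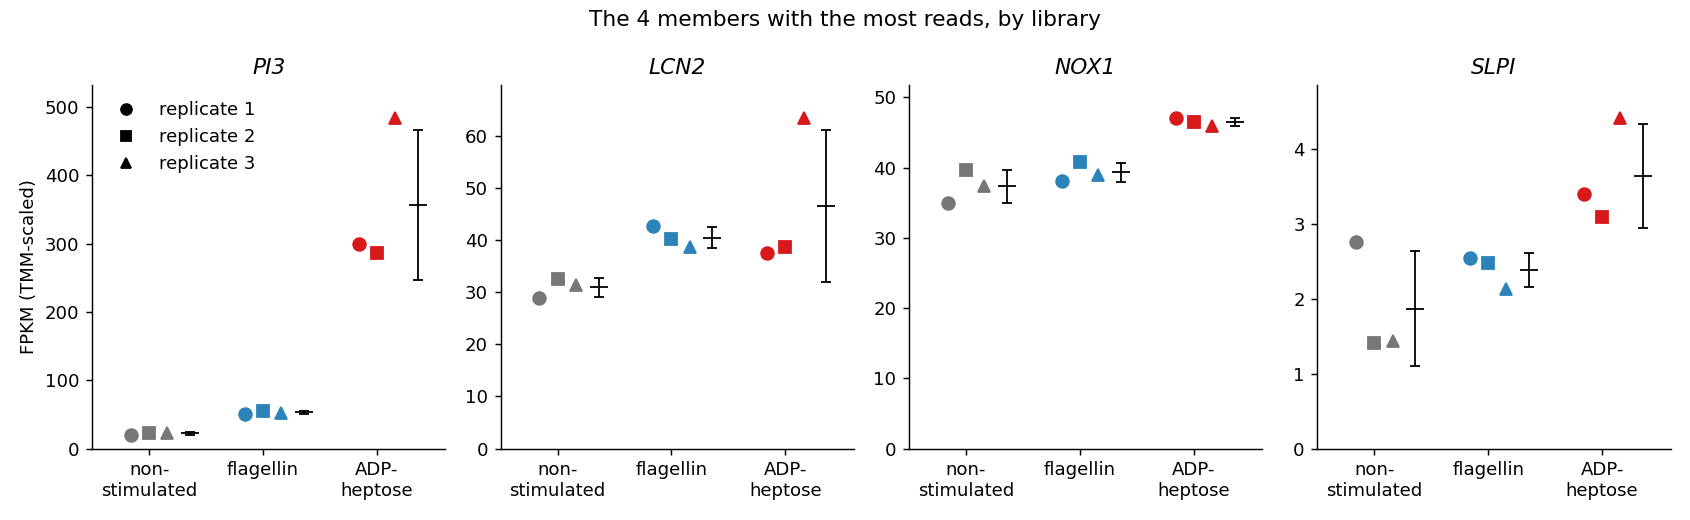
Levels in FPKM (vertical axes, each starting at 0) of PI3, LCN2, NOX1 and SLPI in each library of non-stimulated, flagellin-stimulated and ADP-heptose-stimulated cells, with symbols for replicates and black bars for the mean and SD (n = 3). PI3 steps up from 20.4 to 23.5 over 51.3 to 55.5 to 287 to 484 FPKM, while the other genes move far less and replicate 3 is the highest ADP-heptose library for PI3, LCN2 and SLPI but not for NOX1.

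SLPI, the secretory leukocyte protease inhibitor, shares the whey acidic protein fold with PI3 and lies 75694 bases from it on the opposite strand (chr20:45252239-45254564), with the semenogelin genes SEMG1 and SEMG2 between them. It was much less abundant, with 2.75, 1.40 and 1.44 FPKM in non-stimulated cells, 2.54, 2.48 and 2.13 after flagellin and 3.40, 3.09 and 4.41 after ADP-heptose. The ADP-heptose libraries were above all others, and non-stimulated replicate 1 lay above the flagellin libraries while the other two lay below them. The underlying counts were 64, 30 and 32, then 59, 52 and 40, then 98, 104 and 119. SLPI rose after ADP-heptose with a log2 fold change of 0.95 (SE 0.27, 95% interval 0.36 to 1.55, adjusted p = 0.0413). The flagellin difference was 0.35 (interval -0.27 to 0.97, adjusted p = 1), and the difference between the ligands was 0.60 (0.02 to 1.19, adjusted p = 0.222). The ADP-heptose call was lost in 11 of 17 alternatives, with adjusted p from 0.00702 to 0.160. It was lost, for example, without ADP-heptose replicate 3, where the log2 fold change was 0.80 and the adjusted p 0.0506.

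LCN2 encodes lipocalin 2, which binds bacterial siderophores and so withholds iron, and lies at chr9:128149071-128153455 on the plus strand. Its level was 28.96, 32.5 and 31.5 FPKM in non-stimulated cells, 42.7, 40.2 and 38.6 after flagellin and 37.5, 38.7 and 63.4 after ADP-heptose. Every stimulated library was above every non-stimulated one, and the groups of the 2 ligands overlapped, with ADP-heptose replicate 3 alone above the flagellin range. LCN2 rose after ADP-heptose, by 0.59 on the log2 scale (SE 0.16, 95% interval 0.23 to 0.95, adjusted p = 0.0370). The value after flagellin was 0.39 (SE 0.16, interval 0.03 to 0.75, adjusted p = 1), and the 2 ligands differed by 0.20 (interval -0.16 to 0.56, adjusted p = 0.525). The LCN2 values depended on ADP-heptose replicate 3: without it the log2 fold changes were 0.30 after ADP-heptose (adjusted p = 2.97e-04) and 0.38 after flagellin (adjusted p = 3.39e-05), and the difference between the ligands turned to -0.08 (adjusted p = 0.475). Over 17 alternatives the adjusted p ran from 8.68e-08 to 0.146 for ADP-heptose, past the threshold in 8, and from 3.39e-05 to 1 for flagellin, past it in 3.

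**Figure D2:**
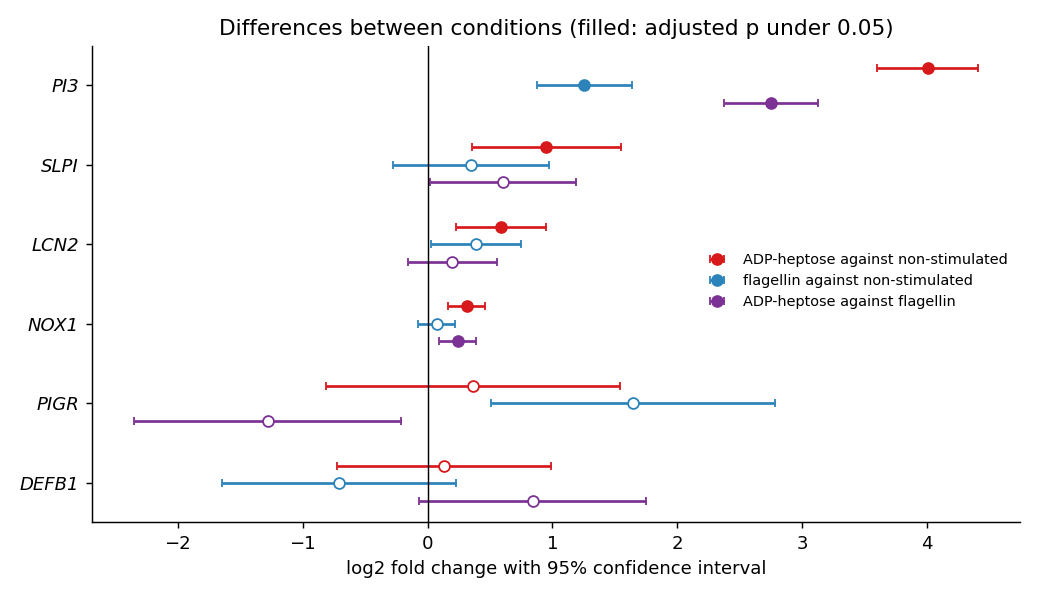
Log2 fold change (horizontal axis) with 95% confidence interval for 6 of the 7 tested members in the 3 comparisons, each from 3 libraries against 3. PGLYRP2 is left out because all its non-stimulated libraries are at 0. Filled points have an adjusted p under 0.05: PI3 is filled in all 3 comparisons, NOX1 in 2 and SLPI and LCN2 in 1, and the intervals of PIGR and DEFB1 are the widest.

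The promoter windows printed here show what surrounds the start sites of members that were called after ADP-heptose and are in the RefSeq promoter table (GRCh38.p14, 250 bases before to 50 after the start, read 5′ to 3′ on the strand of the gene). Of the 10 members 6 had an entry (LCN2, PIGR, DUOX2, DUOXA2, PGLYRP2 and NOX1). Windows were searched on both strands for the NF-κB consensus, the AP-1 motif TGANTCA and the TATA box TATAAA, and capitals mark matches, which did not overlap each other.
LCN2 (chr9:128149203-128149502): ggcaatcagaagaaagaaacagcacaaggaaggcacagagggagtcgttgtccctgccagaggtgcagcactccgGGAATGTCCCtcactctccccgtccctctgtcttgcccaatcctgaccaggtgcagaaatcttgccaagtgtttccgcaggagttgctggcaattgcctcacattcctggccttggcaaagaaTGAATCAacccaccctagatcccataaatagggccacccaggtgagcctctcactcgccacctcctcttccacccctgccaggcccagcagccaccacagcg
PGLYRP2 (chr19:15479452-15479751): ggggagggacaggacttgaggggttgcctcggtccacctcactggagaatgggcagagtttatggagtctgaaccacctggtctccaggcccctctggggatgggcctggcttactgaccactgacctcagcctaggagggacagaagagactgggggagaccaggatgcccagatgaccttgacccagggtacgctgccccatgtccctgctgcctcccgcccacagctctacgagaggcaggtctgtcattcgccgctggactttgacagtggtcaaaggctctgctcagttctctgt
NOX1 (chrX:100874310-100874609): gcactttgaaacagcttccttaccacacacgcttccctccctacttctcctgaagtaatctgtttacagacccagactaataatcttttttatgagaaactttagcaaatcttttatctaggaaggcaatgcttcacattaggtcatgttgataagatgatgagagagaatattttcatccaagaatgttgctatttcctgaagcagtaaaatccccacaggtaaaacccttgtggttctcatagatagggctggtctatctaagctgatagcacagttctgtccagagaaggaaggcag
The LCN2 window holds the NF-κB consensus on the other strand (GGAATGTCCC as printed, first base at -175 from the start) and TGAATCA at -52, and the PGLYRP2 and NOX1 windows hold none of the 3 motifs. Of all 35116 promoter windows, 11.3% hold the NF-κB consensus, 7.71% the AP-1 motif and 11.5% TATAAA. A match is a match of letters only. The whole LCN2 window, its matches included, lies inside the annotated span of the gene (chr9:128149071-128153455), which begins before the RefSeq start.

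NOX1 encodes the catalytic subunit of the superoxide-producing NADPH oxidase of colon epithelium and lies at chrX:100843324-100874345 on the minus strand. It was among the more abundant genes in all conditions, with ranks of 1052, 1019 and 953 of 19855 in non-stimulated, flagellin and ADP-heptose cells. The levels were 35.0, 39.7 and 37.4 FPKM in non-stimulated cells, 38.1, 40.8 and 39.0 after flagellin and 47.1, 46.5 and 45.9 after ADP-heptose. The ADP-heptose libraries were above all others, and the other groups overlapped. NOX1 rose after ADP-heptose, 1.24-fold or 0.32 on the log2 scale (SE 0.07, 95% interval 0.17 to 0.46, adjusted p = 0.00880), and exceeded flagellin by 0.24 (SE 0.07, 0.09 to 0.39, adjusted p = 0.0485). After flagellin the value was 0.07 (interval -0.07 to 0.22, adjusted p = 1). ADP-heptose replicate 3 did not stand out for this gene (0.98-fold of the mean of the other two), and without it the values against non-stimulated cells and flagellin were 0.33 and 0.26. With library totals in place of TMM scaling, which moved the median of all tested genes to -0.13, the ADP-heptose value was 0.18 (adjusted p = 0.110). The call against non-stimulated cells was kept in 14 of 17 alternatives, among them 8 of the 9 fits with a library left out (adjusted p up to 0.0606). The call against flagellin was kept in only 2 of 17 alternatives, with adjusted p from 4.84e-04 to 0.307.

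The NOX1 enzyme works with CYBA, its membrane partner p22phox, with the activator NOXA1, the organiser NOXO1 and the GTPase RAC1. RAC1 rose after ADP-heptose by 0.28 (SE 0.07, adjusted p = 0.0211), from 185 to 201 FPKM in non-stimulated cells to 223 to 241, with 188 to 202 after flagellin, so that its ADP-heptose libraries were above all others. The RAC1 call was lost in 6 of 18 alternatives, library totals among them. CYBA had 106, 108 and 175 FPKM after ADP-heptose against 89.2 to 99.2 in non-stimulated cells and 98.9 to 111 after flagellin, a log2 fold change of 0.49 (SE 0.16, adjusted p = 0.0721) with replicate 3 at 1.64 times the mean of the other two. NOXA1 was at 4.85 to 7.31 FPKM over all libraries and gave 0.18 (adjusted p = 0.440) after ADP-heptose. NOXO1 had at most 6 counts in any library and was not tested, so of the partners of NOX1 the organiser was near the limit of detection in every condition.

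**Figure D3:**
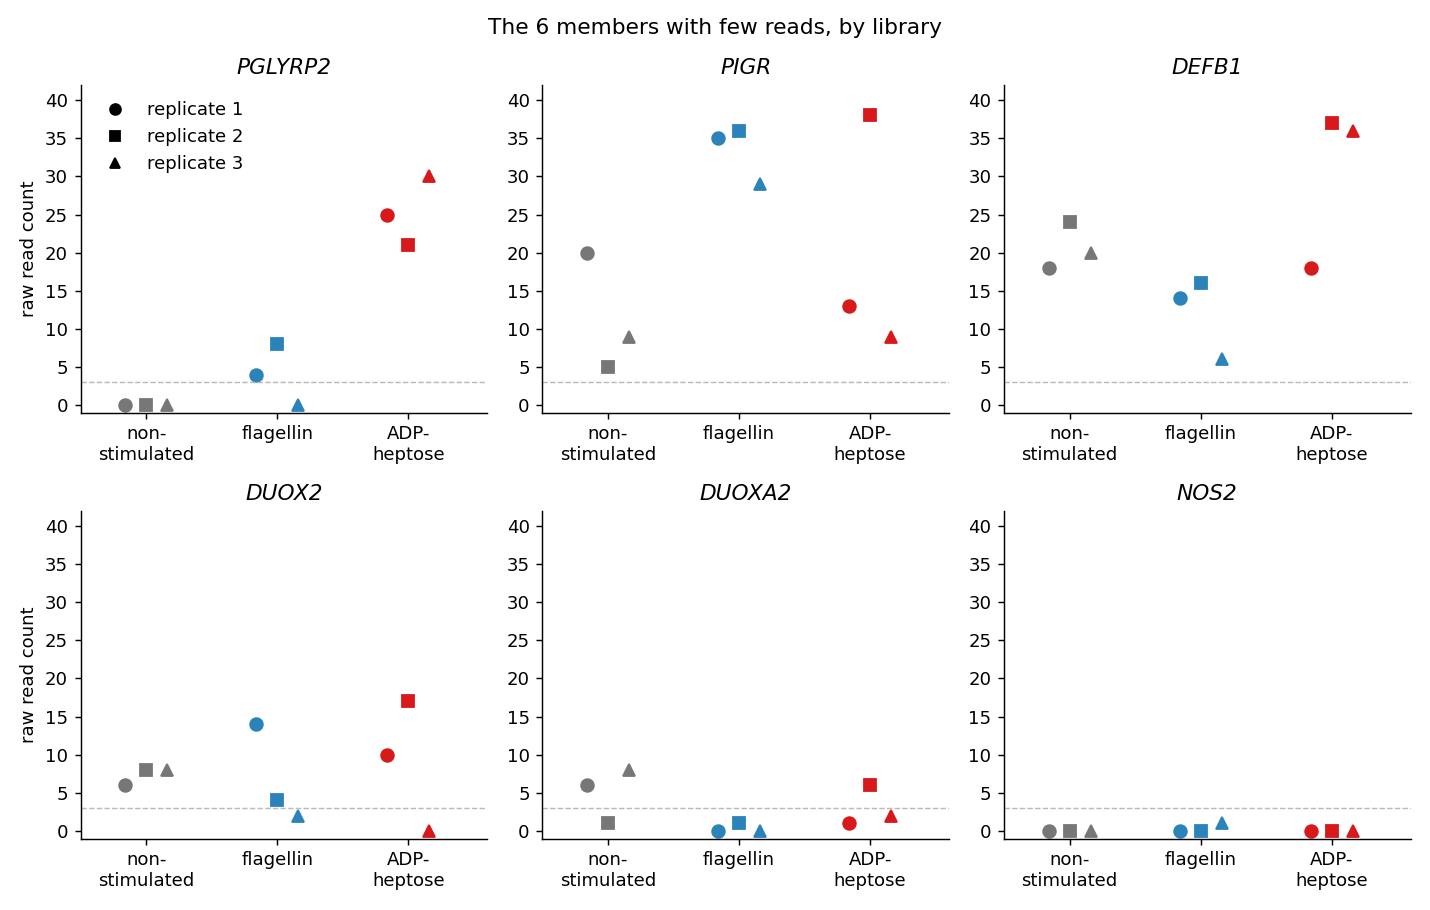
Raw read counts (vertical axes, the same scale in each panel) of the 6 members with few reads in each library. Symbols mark replicates and a dashed line marks 3 counts. PGLYRP2 goes from 0 in all non-stimulated libraries to 21 to 30 after ADP-heptose, PIGR has 29 to 36 counts after flagellin, and NOS2 has a single read in 9 libraries. The ADP-heptose libraries are the deepest, which raw counts do not correct.

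PGLYRP2 encodes a peptidoglycan recognition protein with amidase activity, which cuts the peptide from the sugar chain of the bacterial cell wall. It lies at chr19:15468645-15498956 on the minus strand, and the RefSeq start of its printed window is inside this span. No read was counted in the 3 non-stimulated libraries. Flagellin libraries held 4, 8 and 0 counts and ADP-heptose libraries 25, 21 and 30, so the ADP-heptose libraries were above all others and the flagellin libraries reached down to the non-stimulated level. With 3 counts per library taken as the limit that a count of 0 allows, PGLYRP2 was at least 6.44-fold higher after ADP-heptose than in non-stimulated cells (adjusted p = 0.00496). The filter on low counts let the gene through by these libraries alone, so this adjusted p adds no support. With no filter the edgeR adjusted p of PGLYRP2 was 1.02e-07. In that fit the adjusted p of PI3 was 1.09e-307, against 1.89e-08 with the filter. The fits are not comparable, so the smaller PGLYRP2 value adds no support either. After flagellin the adjusted p of PGLYRP2 was 0.905 with the filter. Its ADP-heptose libraries exceeded the flagellin libraries by 2.16 on the log2 scale (SE 0.72, 95% interval 0.56 to 3.77, adjusted p = 0.111). Even after ADP-heptose the mean level was 0.162 FPKM, rank 12010 of 19855 protein-coding genes. The other peptidoglycan recognition genes of the list, 3 in all, were too low to test.

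PIGR, the polymeric immunoglobulin receptor that carries IgA through the epithelium into the lumen, is at chr1:206928518-206946466 on the minus strand. It had 20, 5 and 9 counts in non-stimulated cells, 35, 36 and 29 after flagellin and 13, 38 and 9 after ADP-heptose. Corrected for depth, the normalised counts were 11.99 ± 7.76 (SD, n = 3), 38.1 ± 2.68 and 15.3 ± 10.3, and the flagellin libraries were above all others, with the other groups overlapping. PIGR was the only tested member whose highest mean was in flagellin cells. The log2 fold change after flagellin was 1.65 (SE 0.52, 95% interval 0.51 to 2.78), with an unadjusted p of 0.00837 and an adjusted p of 0.744. The gene passed the filter on low counts only with its flagellin libraries, so p-values of comparisons with flagellin add no support. ADP-heptose against non-stimulated cells gave 0.36 (interval -0.81 to 1.54, adjusted p = 0.709) and ADP-heptose against flagellin -1.28 (-2.35 to -0.21, adjusted p = 0.151). Without ADP-heptose replicate 2 the latter was -1.999 with an adjusted p of 0.0396 and the former turned to -0.36 (adjusted p = 0.713). Over the other alternatives the ADP-heptose against flagellin comparison stayed above the threshold, up to an adjusted p of 0.339.

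DEFB1 encodes beta-defensin 1, an antimicrobial peptide made by many epithelia without stimulation, and lies at chr8:6870575-6878022 on the minus strand. Its counts were 18, 24 and 20 in non-stimulated cells, 14, 16 and 6 after flagellin and 18, 37 and 36 after ADP-heptose, or 22.4 ± 4.23, 13.5 ± 5.40 and 24.5 ± 8.68 as normalised counts (SD, n = 3). The flagellin libraries were just below the non-stimulated ones after scaling, 18.3 at the highest against 18.6 at the lowest, and ADP-heptose overlapped with both. The log2 fold changes were 0.13 (95% interval -0.73 to 0.99, adjusted p = 0.864) after ADP-heptose and -0.71 (-1.65 to 0.23, adjusted p = 1) after flagellin. Both intervals include falls and rises, so no direction of change was detectable at this depth.

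DUOX2 and DUOXA2 are neighbours on chromosome 15 (chr15:45092650-45114344, minus strand, and chr15:45114321-45118421, plus strand) and encode a hydrogen peroxide-producing oxidase and the factor that brings it to the cell surface. DUOX2 had 6, 8 and 8 counts in non-stimulated cells, 14, 4 and 2 after flagellin and 10, 17 and 0 after ADP-heptose. DUOXA2 had 6, 1 and 8, then 0, 1 and 0, then 1, 6 and 2. The groups overlapped for both genes, and mean levels of DUOX2 were 0.0200, 0.0182 and 0.0172 FPKM. The exons of the pair share 24 bases on opposite strands and DUOXA2 shares 706 of its 2554 exon bases with DUOXA1, and since it is not stated whether strand was used in counting, reads of these genes cannot be told apart there. Their paralogs were low as well: DUOX1 had 51 to 97 counts, with a log2 fold change of -0.32 (95% interval -0.82 to 0.18, adjusted p = 0.405) after ADP-heptose, and DUOXA1 had 3 to 12 counts and was not tested.

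NOS2, the inducible nitric oxide synthase (chr17:27756766-27800499, minus strand), had 1 count in flagellin replicate 3 and 0 in each of the other 8 libraries. A count of 0 allows up to 3 counts, which is 0.0122 to 0.0217 FPKM in these libraries, so in those 8 libraries NOS2 was not detectable at this depth. Such limits cover counting error only. When no filter on low counts was applied, NOS2, DUOX2 and DUOXA2 were tested too, and none was called in any comparison (adjusted p from 0.594 to 1).

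Across the list, PI3, LCN2 and NOX1 together made up 95.6% to 98.9% of the summed FPKM of the 10 members in every library, and the other 7 members were minor everywhere. The sum was 88.2 to 98.5 FPKM in non-stimulated cells, 132 to 140 after flagellin and 376 to 599 after ADP-heptose, without overlap between groups. PI3 accounted for 23.1% to 24.1% of it in non-stimulated cells, 37.8% to 39.6% after flagellin and 76.1% to 80.7% after ADP-heptose. The order of levels changed accordingly: in non-stimulated cells NOX1 was above LCN2 and LCN2 above PI3 in each library, while in all 6 stimulated libraries PI3 was the most abundant. The ratio of PI3 to LCN2 in FPKM was 0.703 to 0.724 in non-stimulated cells, 1.20 to 1.38 after flagellin and 7.41 to 7.98 after ADP-heptose. This ratio was even across the ADP-heptose libraries, replicate 3 included, whereas the ratio of PI3 to NOX1 was 6.36, 6.17 and 10.5.

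**Figure D4:**
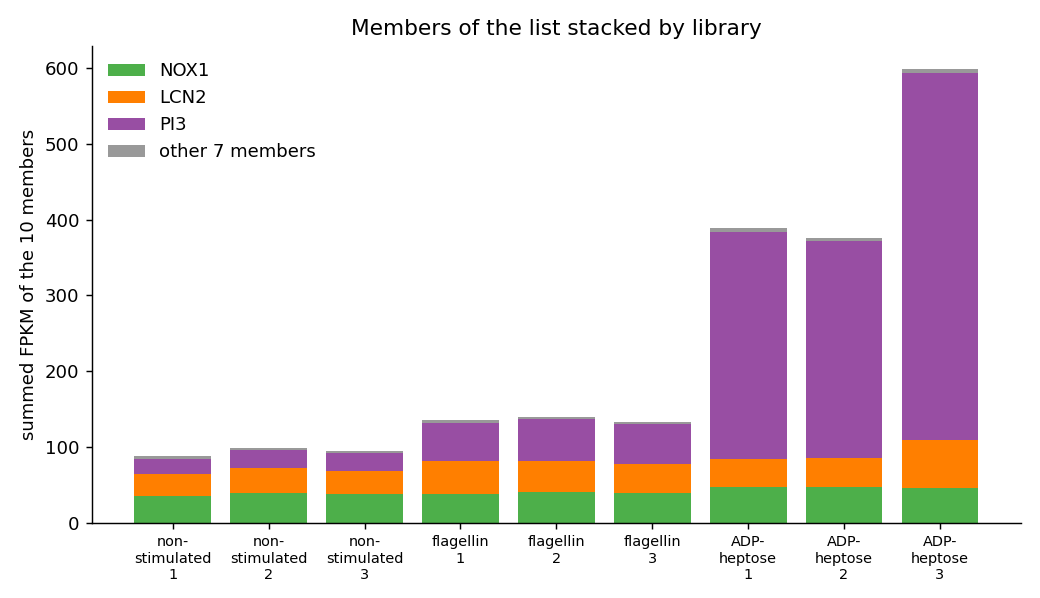
Summed FPKM (vertical axis, from 0) of the 10 members in each of the 9 libraries, stacked by NOX1, LCN2, PI3 and the other 7 members. The bars reach 88.2 to 98.5 in non-stimulated cells, 132 to 140 after flagellin and 376 to 599 after ADP-heptose, and PI3 makes up most of the growth.

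Genes with the most similar profile were sought among 12168 genes by the Euclidean distance of log2 CPM over the 9 libraries, centred on the non-stimulated mean. For PI3 these were SDC4 (distance 0.698, r = 0.99), NFKBIA (1.17) and CX3CL1 (1.25). SDC4 rose by 3.79 after ADP-heptose and 1.30 after flagellin on this scale, beside 3.96 and 1.25 for PI3. For LCN2 the nearest were TNNI3, PEX11G and TMED1, for NOX1 PPP2CB and MTHFD2, and for PGLYRP2 VNN1, STAT5A and SDC4. PIGR was nearest to IFIT2, MAOB and LOC105375166 and DEFB1 to ABHD14A, LNP1 and LRRC23, at larger distances (1.895 to 2.29 and 0.858 to 0.962) than NOX1 (0.101 to 0.143). SLPI was nearest to PTHLH and KREMEN2 among genes with a symbol (0.531 and 0.720). These likenesses are descriptions over 9 libraries that share 3 groups, and libraries with few reads of a gene add counting noise to the distance.

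Many other antimicrobial genes had few or no reads, and some were abundant. Of 88 other genes in 9 lists (metal handling, other whey acidic protein genes, peptides, lectins, enzymes, peptidoglycan recognition, NADPH oxidases, nitric oxide synthesis and IgA transport) 30 had no read in any library, 42 had at most 3 in each and 34 could be tested. Among the tested genes 2 rose after ADP-heptose (GCH1 and RAC1) and 1 fell (SLC40A1), which is 2 and 1 of 34 where 7.48% of all tested genes were called higher and 4.42% lower. The median log2 fold change was 0.09 beside 0.01 over all tested genes. After flagellin 0 of 34 were called by edgeR or DESeq2, where edgeR called 0.368% of all tested genes higher and 0.0115% lower. At an unadjusted edgeR p under 0.05 there was 1 of 34, beside 659 of 17412 over all tested genes. The median was 0.03 beside 0.00. With so few calls over all genes, these counts show no difference from the other genes. Of the 11 peptide genes, defensins and cathelicidin among them, 9 were at 0 throughout. DEFB4A, 1 of these, had 2 identifiers, of which 1 was used. How multiply mapping reads were treated is not stated, so a count of 0 need not mean absence of the transcript. Lysozyme (LYZ) and the lectins LGALS4, REG4 and LGALS3, chosen for mention after their values were seen, had mean levels of 233, 216, 125 and 62.5 FPKM in non-stimulated cells, above each of the 10 members there, and none was called in any comparison (edgeR, adjusted p from 0.251 to 1). Among 10 metal-handling genes 4 were tested, and 3 were at 0 in every library.

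GCH1, which makes the tetrahydrobiopterin cofactor that nitric oxide synthases need, had 3.63 to 3.75 FPKM in non-stimulated cells, 4.64 to 5.01 after flagellin and 7.44 to 8.79 after ADP-heptose. The groups did not overlap. It rose by 1.12 on the log2 scale after ADP-heptose (SE 0.09, 95% interval 0.92 to 1.32, adjusted p = 3.06e-06) and was 0.74 higher than after flagellin (SE 0.09, adjusted p = 1.42e-04), while the flagellin value was 0.38 (SE 0.09, adjusted p = 0.253). GCH1 was 1 of 9 tested genes of nitric oxide synthesis and the only one called, with a list median of 0.25 after ADP-heptose. SLC40A1, the iron exporter ferroportin, had 23.8 to 24.7 FPKM in non-stimulated cells, 23.7 to 23.8 after flagellin and 13.2 to 16.8 after ADP-heptose. It fell by 0.66 on the log2 scale after ADP-heptose (SE 0.08, adjusted p = 2.00e-04), and the flagellin value was -0.02 (95% interval -0.20 to 0.16, adjusted p = 1). Both genes were called against non-stimulated cells and against flagellin in every alternative except that SLC40A1 misses a 2-fold threshold in both comparisons and GCH1 in the second.

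**Figure D5:**
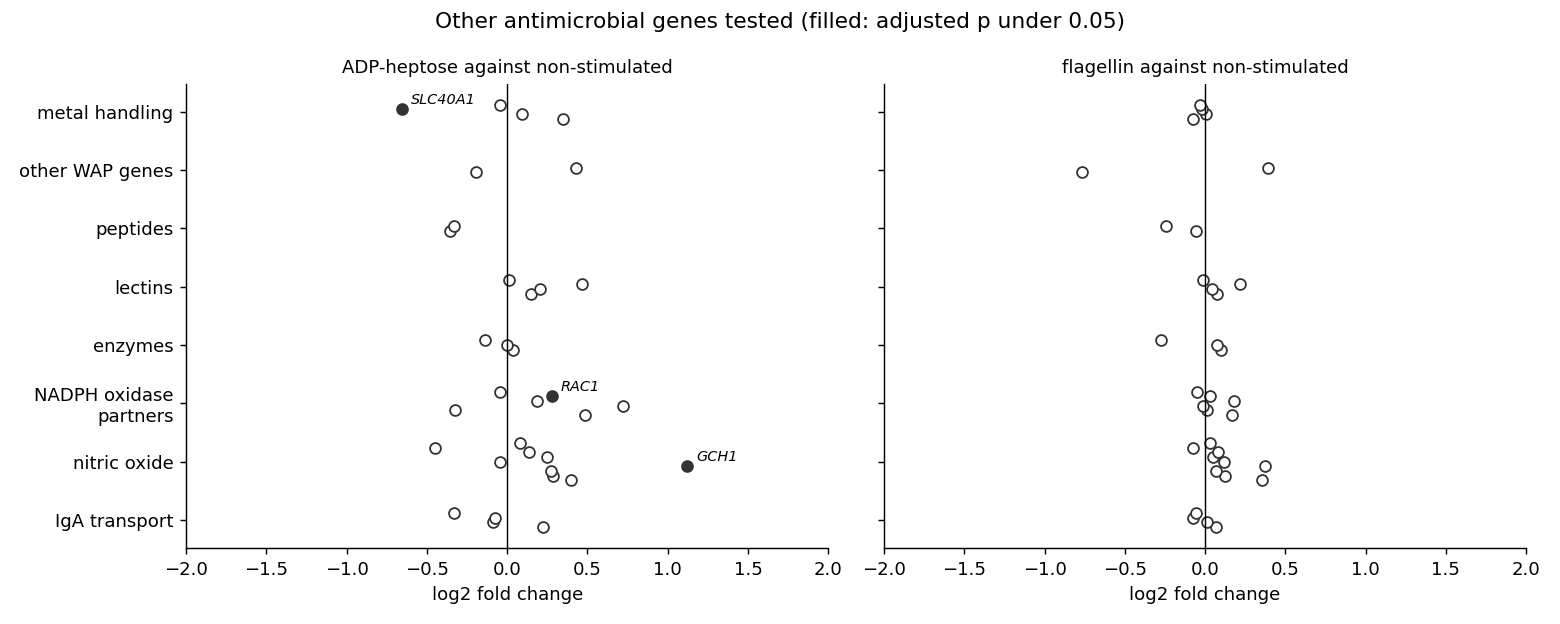
Log2 fold changes (horizontal axes) of the 34 tested genes of the other antimicrobial lists, by list, after ADP-heptose and after flagellin, each point 1 gene and filled where the adjusted p is under 0.05. GCH1 (1.12), RAC1 (0.28) and SLC40A1 (-0.66) are filled after ADP-heptose and none after flagellin.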

How the data were processed

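HT-29 RNA was poly(A)-enriched and sequenced as paired 150-base reads; the authors used HISAT2 for alignment and featureCounts for counting, per the submitters' processing notes (versions, build, strandedness and treatment of multiply mapping reads are not given in the sources used here). The deposited table holds raw counts for 9 libraries, not pooled; 62972 lines hold 62710 identifiers, and 232 identifiers listed more than once with identical counts were kept once. Of these, 58274 (92.9%) are in GENCODE release 29, which gave positions and exon lengths on GRCh38.

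The model was edgeR 4.0.16 under R 4.3.3 (TMM, filterByExpr with a minimum of 10 counts, robust quasi-likelihood), with all 9 libraries in 1 fit and no block. FPKM were computed here as counts per kilobase of exon, scaled to TMM-adjusted library size; normalised counts are scaled to a library of 40298595. The fit was tested on simulated data.

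The alternatives were DESeq2 1.42.0 size factors or library totals instead of TMM, its Wald test, no filter or a minimum mean of 10 counts, only the 6 libraries compared, the replicate number as a block, a 2-fold threshold, each library left out, and, added after seeing the data, offsets for exon length (a spline per library). The members and gene lists were chosen with earlier results of these data known. Named were all members, the NOX1 and DUOX2 partners, every called gene of the lists and the 3 nearest profiles per tested member, of which 1 gene is not reported here. The study describes 3 independent experiments, while the labels do not say how libraries were made; if they share cultures, p-values measure technical spread only.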

Additional observations from a re-analysis of the deposited data

How the results depend on the processing

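The count of members called higher after ADP-heptose (5) was 2 with library totals in place of TMM or with a 2-fold threshold, and 3 with the 6 libraries compared, with the replicate block or with exon-length offsets. It ranged from 3 to 5 when each library was left out. PGLYRP2 is part of these counts and adds no support to them. It was called in all 16 alternatives that tested it, so where the count was 2 the only other member was PI3. For flagellin (1) the count was 2 without a filter on low counts or with 6 libraries, LCN2 being the added gene, and 0 to 2 over left-out libraries. For ADP-heptose against flagellin (2 higher, 0 lower) the higher count was 1 with DESeq2 size factors, library totals, a minimum mean of 10 counts, 6 libraries, the replicate block, the offsets or a 2-fold threshold. Over left-out libraries it was 1 to 2, and the lower count 0 to 1. Calls among the other antimicrobial genes (3 after ADP-heptose) were 5 with library totals or the DESeq2 test, 7 without a filter, 6 with offsets, 1 at 2-fold and 2 to 6 over left-out libraries. They were 0 to 1 after flagellin and, between the ligands (3), 5 without a filter, 0 at 2-fold and 2 to 5 over left-out libraries. Calls over all tested genes changed with the setting as well, as given below for library totals. Shares over all genes for the other settings are not given here, so these counts show no change particular to antimicrobial genes. Signs turned for values that were not called: DEFB1 after ADP-heptose was -0.0103 with library totals and -0.0612 with offsets, and -0.0947 (without ADP-heptose replicate 3) to 0.3728 over left-out libraries. PIGR after ADP-heptose was -0.36 (without ADP-heptose replicate 2) to 1.01, and LCN2 between the ligands -0.0775 (without ADP-heptose replicate 3) to 0.3274. PI3 kept direction and call in all 17 alternatives for ADP-heptose against both other groups (log2 fold change 3.73 to 4.13 and 2.48 to 2.88), and in 16 of 17 for flagellin. Library totals moved the median of all tested genes after ADP-heptose from 0.01 to -0.13. With them 917 genes were called higher and 1886 lower (32.7% higher), against 1302 and 770 (62.8% higher) with TMM. Deviations of same-numbered libraries from their group means had correlations from -0.379 to 0.222. With 3 libraries per group and ADP-heptose replicate 3 standing apart, these cannot decide whether the numbers pair the libraries. Causes were not tested. Depth limits PIGR, DEFB1, PGLYRP2, DUOX2, DUOXA2 and NOS2, which had at most 38 counts in any library.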

Other observations

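PI3 and SLPI belong to a cluster of whey acidic protein genes on chromosome 20, and the protein-coding genes within 200 kb of the pair were listed after the values were seen. Of 16 such genes 10 were tested. Besides PI3 and SLPI, which define the window, SEMG1, SDC4 and SYS1 rose after ADP-heptose, where 7.48% of all tested genes were called higher. The semenogelin gene SEMG1, which lies between PI3 and SLPI and is known as a seminal plasma protein, had normalised counts of 17.9 ± 3.05 (SD, n = 3) in non-stimulated cells, 19.0 ± 12.3 after flagellin and 65.3 ± 11.6 after ADP-heptose, which is 1.86 on the log2 scale (adjusted p = 0.00646 by edgeR). SDC4, the cell-surface proteoglycan syndecan 4, lies 148743 bases from PI3 and rose by 3.79 after ADP-heptose and 1.30 after flagellin (edgeR, adjusted p = 6.25e-12 and 7.33e-07). SYS1 rose by 0.43 (edgeR, adjusted p = 0.00744). WFDC5, a further gene of the cluster, had 0 counts in all non-stimulated and flagellin libraries and at most 9 after ADP-heptose, too few to test. The other tested neighbours were not called: STK4 had a log2 fold change of -0.21 and PIGT one of 0.15 after ADP-heptose.

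ITGAM, an integrin listed here as a leukocyte marker, had 59, 42 and 23 counts after ADP-heptose, 2, 2 and 8 after flagellin and 0, 0 and 6 in non-stimulated cells (edgeR, adjusted p = 0.0121 for ADP-heptose against non-stimulated cells), while CD3E, MPO, ELANE, CSF3R and FCGR3B were at 0 in every library. ITGAM passed the filter on low counts only through its ADP-heptose libraries, so its p-value adds no support. The source of the ITGAM reads was not tested.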
